A study of Homo sapiens with 4 samples.

Results

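The claudins, connexins and pannexins, with the tight junction proteins OCLN and those of the TJP family, were taken from the deposited count table by gene symbol. The rule found 52 of the 28058 listed genes: 24 claudins, 21 connexins, 3 pannexins, and a group of 4 made up of OCLN and the TJP genes. RNA came from cells labelled as SH-SY5Y, an established human neuroblastoma line, in 4 libraries of poly(A) RNA. The 2 control samples were untreated, and the 2 shock wave treatment (SWT) samples received 300 impulses at 0.08 mJ/mm2 and 3 Hz in a water bath at 37 °C, 7 cm from the applicator, per the labels' protocols. RNA was isolated at 6 h. The design text of the series mentions exosomes instead, a point that stays unresolved here. Whether the samples of a group were separate cultures is not labelled. The p-values thus rest on a spread between samples that could be technical.

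Tight junctions are strands of claudins and occludin that join neighbouring cells and set what passes between them. The TJP proteins (zonula occludens proteins) are scaffolds that tie those strands, and connexins as well, to actin. Connexins form gap junction channels, in which a hexamer of one cell docks with that of its neighbour and lets ions and small molecules through. Pannexins form large-pore channels that open to the outside and release ATP, and PANX1 channels are known to respond to mechanical stretch. In the nervous system, GJD2 forms electrical synapses between neurons, while GJB1 belongs to myelinating Schwann cells.

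Total counts were between 9888263 and 11686808 per library. The label was checked against marker lists: 14 of 15 mesenchymal markers reached 1 CPM (the count scaled to TMM-adjusted library size) in every library, while 9 of 15 noradrenergic neuroblastoma markers stayed under 1 CPM in every library. Among the latter, PHOX2A, TH, DBH, MYCN and CHGA had 0 counts in all 4 libraries. Other transcription factor genes of the same list had counts: HAND2 stood at 52 ± 2.23 CPM, GATA2 at 15.9 ± 2.43, ISL1 at 5.76 ± 0.772 and GATA3 at 2.73 ± 0.356 CPM (SD, n = 4). The list was thus met only in part, and 6 of its 15 genes had 0 counts throughout, the catecholamine enzyme genes TH and DBH among them. Its genes summed to 79.1, 80.1, 84.4 and 75.6 CPM in control replicates 1 and 2 and SWT replicates 1 and 2. In the same order, the 15 mesenchymal genes summed to 13393, 12246, 11860 and 12745 CPM. The mesenchymal list was thus met far more fully than the list of the labelled cell type. Heart muscle genes, 26 in number, summed to 412 CPM in control replicate 2, against 21.3, 56.9 and 26 CPM in control replicate 1, SWT replicate 1 and SWT replicate 2. Of the remaining marker lists, 10 of 15 epithelial, 6 of 12 endothelial and 11 of 13 glial and Schwann cell genes stayed under 1 CPM in every library. The endothelial list holds the member CLDN5 and the glial list holds CLDN11. The upper limit set by a count of 0 lies between 0.257 and 0.303 CPM across libraries and covers counting error only.

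A cut at 1 CPM split the members into a smaller set and a larger set at or near 0. At least 1 CPM was reached in every library by 14 members, among them CLDN1, CLDN2, CLDN4, CLDN12, CLDN15, GJA1, GJA3, GJC1, PANX1, PANX2, TJP1 and OCLN. The 14 were also the only members to reach 1 CPM in any library, and the same number reached 0.5 CPM in every library. A further 21 members had between 1 and 16 counts summed over the 4 libraries, none above 0.595 CPM in a library. The other 17 members had 0 counts throughout: 7 claudins, 9 connexins and PANX3.

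**Figure D1:**
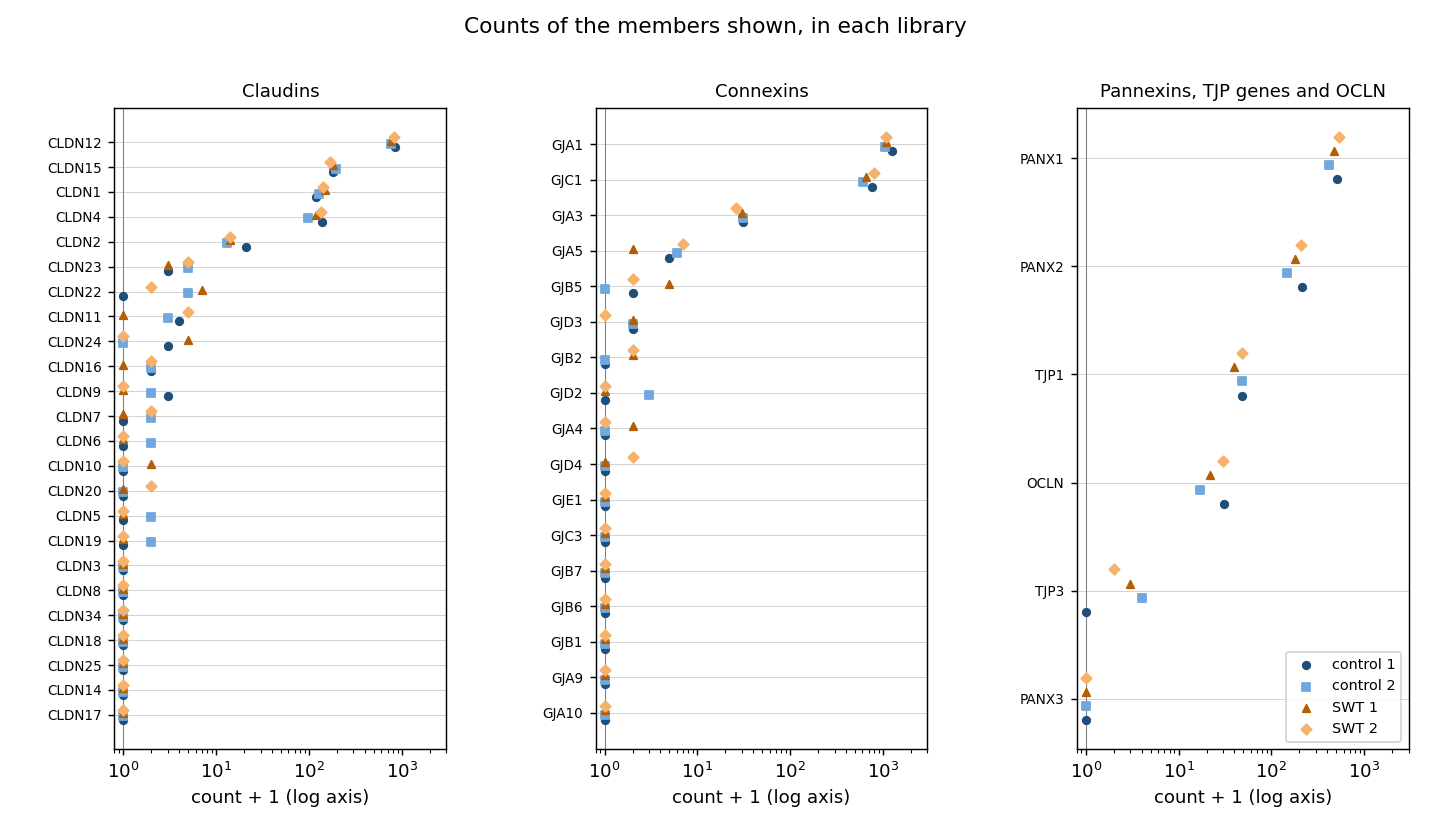
Counts of 47 of the 52 members in each library, with 1 added so that 0 can be drawn on the logarithmic x axis; each point is 1 library and small vertical offsets only separate the points. The 12 members above 1 CPM that are drawn reach down to 12 counts (CLDN2, control replicate 2), and none of the rest exceeded 6 counts in a library.

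Sequences just before the gene starts of a few members are shown because they let the reader compare an abundant connexin, the leading pannexin, and a pair of neighbouring claudins with and without counts. RefSeq start sites on GRCh38.p14 matched 34 of the 52 members, and the windows cover the 250 bases before the RefSeq start. The GENCODE gene models, which give the gene positions below, start some of these genes elsewhere. By those models the CLDN4 window lies inside the gene, and the GJA1 window runs past the gene start. The windows of PANX1 and CLDN3 lie before the gene in both. GJA1 lies at chr6:121435396-121435645 on the plus strand, PANX1 at chr11:94128591-94128840 on the plus strand, CLDN4 at chr7:73830746-73830995 on the plus strand, and CLDN3 at chr7:73770271-73770520 on the minus strand. Capitals mark CG dinucleotides and matches to TGANTCA, the AP-1 recognition sequence. CACCTG, the E-box bound by SNAI and ZEB repressors, and the TATA box letters TATAAA were searched on both strands as well, and neither occurs in these 4 windows.
GJA1: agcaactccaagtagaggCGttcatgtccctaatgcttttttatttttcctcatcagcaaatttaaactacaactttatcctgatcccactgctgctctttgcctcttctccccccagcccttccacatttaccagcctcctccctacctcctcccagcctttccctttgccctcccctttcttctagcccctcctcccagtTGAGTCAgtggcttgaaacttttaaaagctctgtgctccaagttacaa
PANX1: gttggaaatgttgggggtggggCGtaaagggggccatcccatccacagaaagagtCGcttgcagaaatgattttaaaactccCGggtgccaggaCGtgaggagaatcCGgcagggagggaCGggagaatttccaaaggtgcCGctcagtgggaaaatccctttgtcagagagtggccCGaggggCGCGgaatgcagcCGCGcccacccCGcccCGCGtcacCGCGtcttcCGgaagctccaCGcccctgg
CLDN4: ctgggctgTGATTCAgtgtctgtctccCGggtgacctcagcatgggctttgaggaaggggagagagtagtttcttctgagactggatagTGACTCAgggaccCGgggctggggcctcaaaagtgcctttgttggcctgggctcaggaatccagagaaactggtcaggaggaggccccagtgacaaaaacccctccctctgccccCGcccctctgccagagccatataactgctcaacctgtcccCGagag
CLDN3: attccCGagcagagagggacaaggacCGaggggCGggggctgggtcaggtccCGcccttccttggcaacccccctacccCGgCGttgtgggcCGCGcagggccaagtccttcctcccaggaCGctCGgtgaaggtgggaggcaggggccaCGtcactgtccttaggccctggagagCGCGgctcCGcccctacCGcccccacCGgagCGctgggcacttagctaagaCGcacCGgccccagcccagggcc

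The GJA1 window holds 1 CG dinucleotide and the CLDN4 window 4, whereas the windows of PANX1 and CLDN3 hold 19 each. GJA1 has 1 match to TGANTCA, at position -48 relative to the RefSeq start, and CLDN4 has 2, at positions -161 and -242. Among the 10 members at 1 CPM or more that had a window, 4 held TGANTCA (GJA1, CLDN2, CLDN4 and CLDN15), against 1 of the 24 members under 1 CPM (CLDN16). By the GENCODE models the matches of GJA1, CLDN4 and CLDN15 lie inside the gene, so their place before the start rests on RefSeq. Over all 27305 genes with a window the share was 8.06%. CACCTG was found in 3 of the 10 and 6 of the 24, against 20.6% of all genes, and TATAAA in 0 and 2, against 13%. A window with a CG content at 0.6 or more of that expected from its bases, and at least 50% G and C, was found for 6 of the 10 (CLDN1, CLDN12, GJA3, OCLN, PANX1 and TJP1) and 7 of the 24, against 48.3% of all genes. A gene counted once if any of its windows matched, and such a match describes letters, not binding. GJC1 and PANX2 were among the members at 1 CPM or more without a window. The motifs were chosen after values were seen, so no enrichment is read from these shares.

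Genomic neighbours differed in whether they carried counts. Positions and distances here are those of GENCODE 29, and RefSeq places some starts elsewhere. CLDN4, a claudin of sealing strands (chromosome 7, 73799542 to 73832693), had 136, 96, 118 and 134 counts in control replicates 1 and 2 and SWT replicates 1 and 2. CLDN3, which seals epithelia (73768997 to 73770270), ends 29271 bases before it and had 0 in all 4. CLDN1 (chromosome 3, 190305701 to 190322475) had 118, 127, 146 and 140 counts. CLDN16, a claudin of the kidney that starts 65 bases away on the opposite strand in GENCODE 29, had 1, 1, 0 and 1. The windows before the RefSeq starts of CLDN16 end at 190290360 and 190388162, so that closeness rests on the gene model. The RefSeq window of CLDN4 lies at 73830746 to 73830995, so its distance to CLDN3 rests on the model too. On chromosome 13, GJA3 (20138255 to 20161049) had 30, 30, 29 and 25 counts, and its neighbours GJB2, the main connexin of the inner ear, and GJB6 had 0, 0, 1 and 1 counts and 0 counts.

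Connexin counts came mostly from GJA1 and GJC1. GJA1 (also CX43, chromosome 6, 121435577 to 121449727), the most widespread connexin and a major one of heart, fibroblasts and astrocytes, stood at 106 and 106 CPM in the controls and at 107 and 92.5 CPM in the SWT samples. SWT replicate 2 was the low library, and SWT replicate 1 lay above both controls, so the groups overlapped. The log2 fold change was -0.10 (SE 0.07, 95% interval -0.25 to 0.05, edgeR adjusted p = 0.902). It was 0.0059 without SWT replicate 2 and -0.20 without SWT replicate 1. Control replicate 2, the library with the most heart muscle counts, was level with control replicate 1 in GJA1. Whether any GJA1 counts came from heart muscle RNA was not tested.

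GJC1 (also CX45, chromosome 17, 44798448 to 44830816), a connexin of early heart, smooth muscle and some neurons, stood at 65.3 and 60.8 CPM in control and 65.5 and 68.7 CPM in SWT. Both SWT libraries lay above both controls, by little in the case of SWT replicate 1. The log2 fold change was 0.09 (SE 0.07, 95% interval -0.06 to 0.24, edgeR adjusted p = 0.912). It was 0.041 without control replicate 2, the lowest library.

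GJA3 (also CX46), a connexin of the eye lens, stood at 2.58 and 3.03 CPM in control and 2.88 and 2.14 CPM in SWT, with overlapping groups and a log2 fold change of -0.17 (SE 0.28, 95% interval -0.75 to 0.42). Without SWT replicate 2 it was 0.041.

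The share of GJA1 in the connexin counts was lowest in SWT replicate 2. GJA1 made up 57.4% of all connexin reads of control replicate 1 (55.3% to 59.5%, the 95% range by the exact Clopper-Pearson method), 59.1% in control replicate 2 (56.8% to 61.4%) and 58.0% in SWT replicate 1 (55.7% to 60.2%). In SWT replicate 2 it made up 53.0% (50.9% to 55.2%), while GJC1 made up 39.4% (37.2% to 41.5%) there. In control replicates 1 and 2 and SWT replicate 1, GJC1 made up 35.2% (33.2% to 37.3%), 33.8% (31.6% to 36.1%) and 35.6% (33.4% to 37.8%), so its intervals overlapped in part. The ratio of GJA1 to GJC1 counts was 1.35 in SWT replicate 2 and 1.63 to 1.75 elsewhere. The intervals cover counting error only and not the spread between samples, so no difference between the groups is read from these shares.

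**Figure D2:**
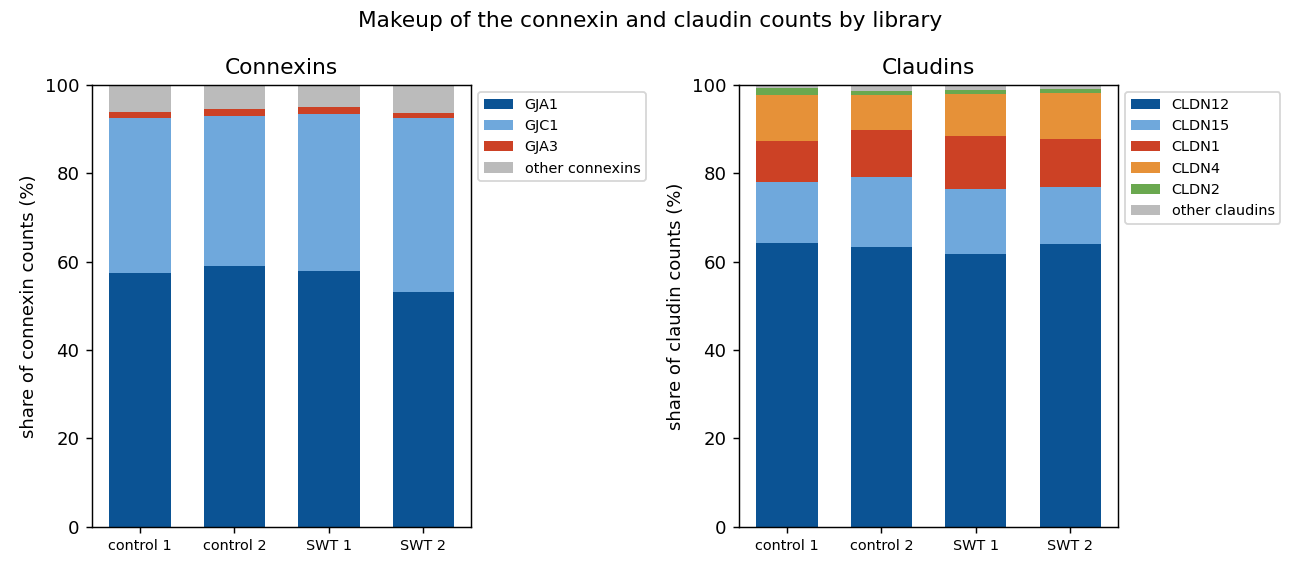
Share of each gene in the connexin counts (left) and claudin counts (right) of each library, as stacked bars that add up to 100%. GJA1 is the largest connexin part in every library, with its lowest share of 53.0% in SWT replicate 2, and CLDN12 makes up 61.8% to 64.2% of claudin counts.

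Most other connexins were at or near 0. GJD2 (also CX36), the connexin of electrical synapses, had 0 and 2 counts in control and 0 and 0 in SWT. GJA5 (also CX40), of atrium and arterial endothelium, had 4 and 5 counts in control and 1 and 6 in SWT, with 5 in the library richest in heart muscle transcripts. GJA4 had 1 count in all, and GJB1 of Schwann cells and liver, GJB6, GJB7, GJA9, GJA10, GJC3 and GJE1 had none. GJB2, GJB5, GJD3 and GJD4 had between 1 and 6 counts summed over the 4 libraries. GJA9 shares 92.3% of its exon bases with the readthrough gene GJA9-MYCBP on the same strand, so its 0 need not reflect its transcripts.

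Claudin counts were led by CLDN12, an atypical claudin that lacks the usual PDZ-binding end and takes part in calcium permeability. CLDN12 (chromosome 7, 90383721 to 90513402) stood at 71.7 and 77.5 CPM in control and 75.7 and 71.2 CPM in SWT, and the groups overlapped. The log2 fold change was -0.022 (SE 0.07, 95% interval -0.17 to 0.13, edgeR adjusted p = 0.988), and 0.033 without control replicate 2. Its exons share 16.3% of their bases with other genes on the same strand, GTPBP10 and CDK14 among them, and the counting of such reads was not given in the sources used here.

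CLDN15 and CLDN2 form cation-selective pores in epithelia such as the gut. CLDN15 (chromosome 7, 101232092 to 101238820) stood at 15.5 and 19.5 CPM in control and 18.1 and 14.3 CPM in SWT, and its log2 fold change was -0.11 (SE 0.14, 95% interval -0.41 to 0.19). It turned to 0.054 without control replicate 2 and 0.051 without SWT replicate 2. CLDN2 (chromosome X, 106900164 to 106930861) had 20 and 12 counts in control and 13 and 13 in SWT, or 1.72, 1.21, 1.29 and 1.12 CPM. Its 95% interval of -1.12 to 0.51 was the widest of the tested members and reached beyond a halving of the level, so the depth sets little limit on a change of CLDN2. Its log2 fold change of -0.31 became -0.018 on omitting control replicate 1 and -0.52 on omitting control replicate 2.

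CLDN1 and CLDN4 are sealing claudins, CLDN1 being required for the skin barrier. CLDN1 stood at 10.2 and 12.8 CPM in control and 14.5 and 12 CPM in SWT. Control replicate 1 was the lowest and SWT replicate 1 the highest, and the groups overlapped through the other libraries. The log2 fold change was 0.21 (SE 0.15, 95% interval -0.11 to 0.53, edgeR adjusted p = 0.902), and leaving out control replicate 1 gave 0.038, SWT replicate 1 0.069, SWT replicate 2 0.34 and control replicate 2 0.38 (edgeR adjusted p = 0.283 for the last). CLDN4 stood at 11.7 and 9.70 CPM in control and 11.7 and 11.5 CPM in SWT, a log2 fold change of 0.11 (SE 0.14, 95% interval -0.20 to 0.41), which was -0.013 without control replicate 2.

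Barrier claudins of other tissues were at or near 0. CLDN5, the claudin of the blood-brain barrier endothelium, had 1 count in control replicate 2 and 0 elsewhere, and CLDN11, of oligodendrocyte and Sertoli cell strands, had 3, 2, 0 and 4. CLDN3, CLDN8, CLDN14, CLDN17, CLDN18, CLDN25 and CLDN34 had 0 counts in all libraries. CLDN6, CLDN7, CLDN9, CLDN10, CLDN16, CLDN19 and CLDN20 had 1 to 3 counts in all, and CLDN22, CLDN23 and CLDN24 had 11, 12 and 6. The exons of CLDN22 lie wholly within those of WWC2 on the opposite strand. The kit was stranded, but the strand setting of the counting was not given, so reads of CLDN22 and WWC2 cannot be told apart here. CLDN22 and CLDN24, and also CLDN6 and CLDN9, are close paralogs whose reads the counting could split.

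Of the pannexins, PANX1 and PANX2 were present and PANX3, of bone and skin, had 0 counts. PANX1 (chromosome 11, 94128928 to 94181972) stood at 43.4 and 42.4 CPM in control and 46.2 and 46.1 CPM in SWT. Both SWT libraries lay above both controls, and replicates of a group lay within 0.956 CPM of each other. The log2 fold change was 0.10 (SE 0.08, 95% interval -0.06 to 0.26, edgeR adjusted p = 0.902), and 0.090 to 0.12 with each library left out in turn. With both SWT libraries above both controls, leaving out 1 library could hardly turn this direction, so the range adds no support for a difference.

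PANX2 (chromosome 22, 50170731 to 50180294), the pannexin of the central nervous system, stood at 18.1 and 14.6 CPM in control and 17.9 and 17.9 CPM in SWT. Control replicate 2 alone was low, and the log2 fold change of 0.12 (SE 0.13, 95% interval -0.15 to 0.39, edgeR adjusted p = 0.930) turned to -0.014 without it. Pannexin counts together summed to 59.3 ± 3.10 CPM in untreated cells and to 64.0 ± 0.0634 CPM after SWT (SD, n = 2 each; exact permutation test, 2-sided p = 0.333, the smallest that 2 samples against 2 allow). The difference of 4.76 CPM was 2.56 CPM without control replicate 2 and 6.95 CPM without control replicate 1.

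The sums of the other families differed by less than the spread between replicates. Connexins summed to 183 ± 4.15 CPM in untreated cells and to 179 ± 6.81 CPM after SWT (SD, n = 2 each; exact permutation p = 0.667). Claudins summed to 117 ± 7.56 and 117 ± 8.02 CPM, and OCLN with the TJP genes to 74.1 ± 3.24 and 73.5 ± 0.970 CPM (SD, n = 2 each; exact permutation p = 1 for both). With each library left out, SWT minus control ran from -8.21 to 1.43 CPM for connexins, -5.84 to 5.50 for claudins and -2.87 to 1.71 for OCLN with the TJP genes. Such sums in bulk RNA cannot tell fewer expressing cells from less RNA per cell, and 4 families were compared, for which no adjustment can bring p under the threshold.

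TJP1 (also ZO-1, chromosome 15, 29699367 to 29968865), a widespread scaffold, had 47 and 47 counts in control and 39 and 47 in SWT. That is 4.05, 4.75, 3.87 and 4.03 CPM, so both SWT libraries lay below both controls by a narrow margin, and the log2 fold change was -0.15 (SE 0.21, 95% interval -0.60 to 0.31, edgeR adjusted p = 0.952). On omitting control replicate 2 it was -0.032, and on omitting control replicate 1 it was -0.26. Its level per length of the longest transcript was 1.59 ± 0.140 TPM (transcripts scaled by length and depth; SD, n = 4).

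Low counts of a single gene need care in this table. TUBB, a beta tubulin gene of nearly all cells, had 0 to 2 counts in a library, and CTNND1, encoding p120 catenin of adherens junctions, had 22 to 36, beside 2940 to 3649 for its partner CTNNB1. Both were picked after their values were seen. How reads that fit several loci or overlapping genes were counted was not given in the sources used here, and its part in the low counts of TJP1, or in the zeros of other members, was not tested. OCLN (chromosome 5, 69492292 to 69558104) has the pseudogene OCLNP1 on the same chromosome, and GJA1 the processed pseudogene GJA1P1, neither of which was analysed here. OCLN had 30 and 16 counts in control and 21 and 29 in SWT, a log2 fold change of 0.11 (SE 0.31, 95% interval -0.55 to 0.77) that turned to -0.17 without control replicate 2 and -0.024 without SWT replicate 2. TJP3, the epithelial scaffold, had 0, 3, 2 and 1 counts.

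Levels can be ordered between genes only per length, and here they were scaled to the longest GENCODE 29 transcript. Of the 12 named members at 1 CPM or more, GJA1 stood highest at 98.8 ± 6.51 TPM, followed by CLDN12 at 62.8 ± 2.60, PANX1 at 48.6 ± 2.46, GJC1 at 25.8 ± 1.41 and CLDN15 at 23.9 ± 3.31 TPM (SD, n = 4). GJC1 and CLDN15 did not differ beyond their spread by this length. PANX2 at 17 ± 1.71, CLDN1 at 10.8 ± 1.62 and CLDN4 at 8.10 ± 0.743 TPM came next. TJP1, GJA3, CLDN2 and OCLN lay between 1.03 and 1.59 TPM, with neighbours in that order not separated beyond their spread. With the union of all exons as the length, PANX1 at 69.6 TPM passed CLDN12 at 47.5 TPM. Likewise, GJA3 at 2.21 and CLDN2 at 1.69 TPM passed TJP1 at 1.60 TPM. By the union length GJC1 at 32.5 ± 1.76 TPM lay above CLDN15 at 25.2 ± 3.51 TPM (SD, n = 4), and their libraries did not overlap. Those places thus rest on the transcript model.

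The comparison of SWT with control asks whether junction genes differed after treatment. None of the 14 members that passed the filter on low counts did so by edgeR's test, where 0% of the 12399 genes tested were called in either direction. Their adjusted p-values ran from 0.902 to 0.997, and 0 of 14 had an unadjusted p under 0.05, beside 715 of the 12399 genes. DESeq2 called 0 of 35 members (0 unadjusted, beside 116 of 17737 genes), and limma-voom 0 of 14 (0 unadjusted, beside 721 of 12399 genes). On the authors' deposited log2 values limma called 0 of 35, with 2 unadjusted, CLDN9 and GJB2, beside 847 of 17151 genes. CLDN9 and GJB2 have 3 and 2 counts in all. No member was called without a filter on low counts either, where 0.355% of genes were. The same held with a library left out, where 0.978% and 1.6% of genes were called on omitting control replicates 1 and 2, and 0.346% and 0.135% on omitting SWT replicates 1 and 2. The members lay on either side of 0, with 6 above, 8 below and a median log2 fold change of -0.014, beside -0.00078 over all genes tested.

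For 9 of the 14 members the 95% interval lay within 0.5 log2 units of 0, and for 13 within 1 unit, CLDN2 being the exception. Abundant members were bounded most closely: in linear terms the interval ran from 0.843 to 1.04 for GJA1, 0.957 to 1.18 for GJC1, 0.888 to 1.09 for CLDN12 and 0.961 to 1.20 for PANX1. A miss of the threshold does not show that the groups were alike, and these intervals give the size of change that the 4 libraries leave possible. Both SWT libraries lay above both controls for GJC1 and PANX1, 2 of 14 members, where 17.3% of all genes tested did so, and below both controls for TJP1, 1 of 14, where 18% did.

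**Figure D3:**
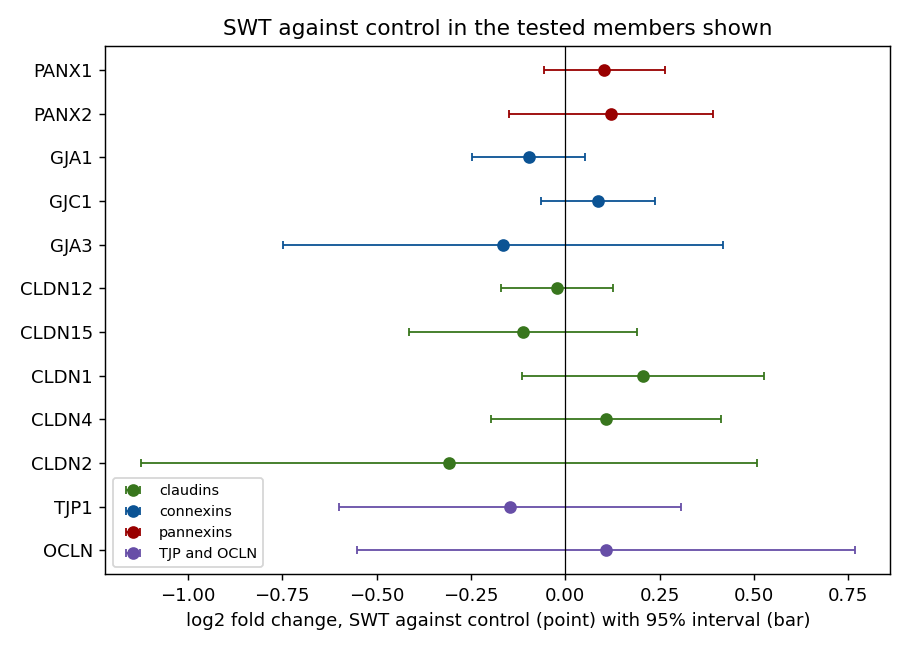
Log2 fold change of SWT against control for 12 of the 14 tested members (points) with its 95% interval from the edgeR fit (bars), coloured by family. Every interval drawn includes 0, and the intervals are narrowest for CLDN12, GJA1, GJC1 and PANX1 and widest for CLDN2.

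Genes of proteins that bind tight junction strands or build apical polarity mostly had clear counts, and the proteins were not measured. Of 40 listed partner genes in the table, 33 reached 1 CPM in every library. The junctional adhesion molecule genes JAM3 and F11R stood at 86.5 ± 2.5 and 18.2 ± 0.493 CPM, and the epithelial adaptor gene CGN at 2.52 ± 0.265 CPM (SD, n = 4). MARVELD2 (tricellulin, of corners where several cells meet) and MARVELD3, both relatives of occludin, had 0 counts in all libraries, and CRB3, the epithelial Crumbs gene, had 1, 0, 0 and 1.

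None of the 34 partner genes tested passed the test in either direction (edgeR, 3 at an unadjusted p under 0.05), with 23 above 0, 11 below and a median log2 fold change of 0.061. Of all 12399 genes tested, 715 had an unadjusted p under 0.05 and 6161 lay above 0, so nothing particular to the list is read from these counts. The 3 with the smallest p-values were PRKCI, PARD6A and MPP5. PRKCI, the atypical protein kinase C of the Par complex, stood at 50.3 and 52 CPM in control and 58.3 and 59.9 CPM in SWT, with a log2 difference of 0.21 (SE 0.07, edgeR adjusted p = 0.838). Its Par complex partner PARD6A had 36 and 28 counts in control and 41 and 56 in SWT, a log2 fold change of 0.58 (SE 0.23), and MPP5, which links Crumbs to tight junctions, stood at 0.15 (SE 0.07), with adjusted p-values of 0.838 and 0.843. The value of MPP5 was 0.088 without control replicate 1. All 3 had both SWT libraries above both controls. They were named by their small p-values, which favours such a separation in either direction, so it is no further support.

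RNA was present for nearly all gap junction partner genes, whose proteins anchor, phosphorylate or remove connexins. Of 29 in the table, 26 reached 1 CPM in every library, among them the N-cadherin gene CDH2 at 278 ± 10.5 CPM, the catenin gene CTNNB1 at 307 ± 7.79 CPM and the caveolin gene CAV1 at 757 ± 25.5 CPM (SD, n = 4). None of the 27 tested passed in either direction (edgeR, 3 at an unadjusted p under 0.05, beside 715 of all 12399 genes tested). Of the 27, 13 lay above 0 and 14 below, with a median of -0.0093. Nothing particular to the list is read from these counts. DBN1, encoding drebrin, which ties GJA1 channels to actin, stood at 225 and 203 CPM in control and 181 and 198 CPM in SWT, with a log2 difference of -0.18 (SE 0.07, edgeR adjusted p = 0.838). On omitting single libraries it ran from -0.096 without control replicate 1 (edgeR adjusted p = 0.810) to -0.25 without control replicate 2, where alone of these 4 fits it passed (edgeR adjusted p = 0.00427, with 1.6% of genes called). It was -0.11 without SWT replicate 1. With the replicate numbers crossed as a block, DBN1 was at -0.18 and passed (edgeR adjusted p = 0.0418). That fit was added after the data were seen and called 97 of 12399 genes. NEDD4, a ubiquitin ligase of GJA1, stood at 0.16 (SE 0.07) and the tubulin gene TUBA1A at -0.14 (SE 0.06), neither passing. They were 0.095 and -0.080 without SWT replicate 1. PKP2, of the cardiac desmosome, had 13 counts in control replicate 2 and 1 or 2 in the other libraries, moving with the heart muscle genes.

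Genes that set the epithelial state, on which many claudins depend, were largely without counts, while genes that repress it were present. CDH1, GRHL2, OVOL1, OVOL2 and RAB25 had 0 counts in all libraries, and EPCAM, ESRP1, ESRP2, GRHL3, TP63, ST14, SPINT1 and SPINT2 had at most 5 in a library. The repressors ZEB1 and ZEB2 stood at 50.6 ± 3.41 and 64.9 ± 3.28 CPM, TWIST1 and TWIST2 at 14 ± 0.609 and 11.9 ± 0.910 CPM, and SNAI1 and SNAI2 at 5.29 ± 0.439 and 3.23 ± 0.436 CPM (SD, n = 4). KLF5 at 12.1 ± 0.781 CPM and ELF3 at 5.37 ± 0.879 CPM were epithelial factors with counts, as were the keratin genes KRT8 at 315 ± 21.1 CPM and KRT18 at 565 ± 15.7 CPM. Of 9 tested, none passed in either direction (edgeR, 0 at an unadjusted p under 0.05), with 6 above 0 and a median of 0.027. The 3 with the smallest p-values were ZEB1 at 0.10 (SE 0.08), ZEB2 at 0.09 (SE 0.07) and GRHL1 at -0.47 (SE 0.41), with edgeR adjusted p-values of 0.910, 0.912 and 0.914. Without control replicate 1, ZEB1 was 0.0050 and ZEB2 0.022, and without control replicate 2 they were 0.20 and 0.15.

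**Figure D4:**
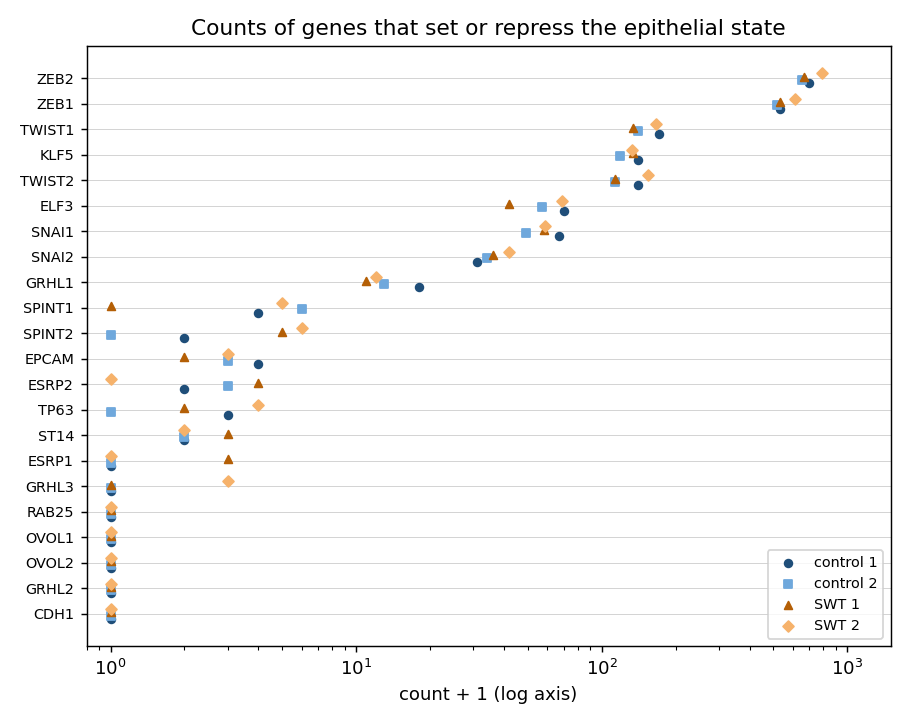
Counts, with 1 added, of 22 genes that set or repress the epithelial state, on a logarithmic x axis; each point is 1 library. ZEB1 and ZEB2 have the highest counts in all 4 libraries, while CDH1, GRHL2, OVOL1, OVOL2 and RAB25 lie at a count of 0.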

How the data were processed

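The authors deposited raw counts per gene symbol for 28058 genes in 4 libraries, 2 control and 2 SWT. The submitters' processing notes list STAR 2.5.3a, HTSeq, DESeq2, Trimmomatic 0.36 and FastQC 0.11.5, with the build hg38 and without a role. The annotation is not given in the sources used here. In addition, the authors deposited log2 values for 17151 genes, 35 members among them, of a transform not given in the sources used here.

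Counts were tested over all genes with edgeR 4.0.16 in R 4.3.3 (TMM factors, filterByExpr, quasi-likelihood F-test, Benjamini-Hochberg adjustment over 12399 genes, threshold 0.05). Standard errors divide the size of the log2 change by the root of F, and 95% intervals use a t quantile, so both are approximate. Alternatives used DESeq2 1.42.0 and limma 3.58.1. The fit was tested on simulated counts with known changes. Coordinates and lengths are those of GENCODE 29 on GRCh38, the assembly of hg38, matched by symbol for all 52 members. TPM values were computed here over the 91.6% of genes with a length. Promoter sequences are RefSeq's, on GRCh38.p14. Plots were drawn with matplotlib 3.10.9.

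The members and lists were chosen with earlier results of these data known. Members at 1 CPM or more were described one by one, and for other lists the 3 with the smallest p-values were named. Other named genes, and the motifs, were chosen after values were seen. Some members and marker genes are not reported here by name, though counts and sums over the members include them. Protein sequences had been planned and were not used here.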

Additional observations from a re-analysis of the deposited data

How the results depend on the processing

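No member was called under any of the 13 alternatives to the edgeR fit, while the count over all genes moved from 0 higher and 0 lower. Without a filter edgeR called 20 higher and 43 lower. With each library left out the counts were 2 to 106 higher and 15 to 97 lower, from fits in which the lone library of a group is assumed to vary like the other group. With the replicate number as a block, 0 were higher and 1 lower. Same-numbered libraries deviated against each other (correlation -0.264 over 12399 genes), so the numbers gave no sign of pairing, and the crossed pairing, added after the data were seen, gave 55 higher and 42 lower. The cause was not tested.

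Log2 fold changes of the 12 named members kept their sign in all 104 values from the alternatives that keep every library. Of 48 values with a library left out, 10 turned. The ranges were -0.079 to 0.033 for CLDN12, -0.28 to 0.054 for CLDN15, -0.013 to 0.26 for CLDN4, -0.20 to 0.0059 for GJA1, -0.38 to 0.041 for GJA3, -0.17 to 0.51 for OCLN and -0.014 to 0.29 for PANX2. The filter of a mean count of at least 50 left out CLDN2, GJA3, OCLN and TJP1. A threshold of 2 CPM in every library left 12 members in place of 14. The intervals of CLDN1, CLDN2, OCLN, GJA3 and TJP1 reach beyond 0.5 log2 units. Depth limits CLDN2, OCLN, GJA3 and TJP1, which have the fewest counts of the 12 named members. CLDN1, with 531 counts in all and an SE of 0.15, was measured about as closely as CLDN4, with 484 and 0.14. The estimate of CLDN1 lay further from 0.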
